A study of Mus musculus with 6 samples.

Results

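The genes described here are 10 output genes of the circadian clock: *Per1*, *Per2*, *Per3*, *Cry1*, *Cry2*, *Nr1d1*, *Nr1d2*, *Dbp*, *Tef* and *Npas2*. They were taken by symbol from the 56980 genes listed in the deposited matrices, and all 10 were listed. *Per3* held 0 UMIs in every library, so 9 members have values. The data are single-nucleus RNA sequencing counts from 6 libraries of mouse white fat, and all mice were female C57BL/6J. In 2 libraries the tissue was the inguinal subcutaneous depot (SAT) of mice aged 2 months, in 2 it was SAT of mice aged 24 months, and in 2 it was the gonadal visceral depot (VAT) of mice aged 24 months. No treatment or altered allele is named for any group. The older age is 24 months by the sample labels but 26 months by the series description, and 24 is used here. The study asked how the nuclei of white fat differ with age and depot.

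The mammalian clock is a loop of transcription and repression that runs in nearly every cell. BMAL1 (gene *Arntl*) pairs with CLOCK or its relative NPAS2 and switches on genes that carry E-boxes, among them the *Per* and *Cry* genes, whose proteins return to repress that pair. A second arm is formed by *Nr1d1* and *Nr1d2*, the REV-ERB receptors that repress *Arntl* and *Npas2* through ROR elements, and the D-box factors DBP and TEF pass the rhythm on to genes of lipid metabolism. In mouse tissues, *Arntl* and *Npas2* run in antiphase to *Dbp*, *Tef*, *Per2* and the *Nr1d* genes over the day. The labels give no hour of collection for any library, so age or depot and the hour of collection cannot be told apart in these data.

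Each library held between 8061862 and 16226690 UMIs (unique molecular identifiers, which count RNA molecules). After filtering, 2490 to 5776 nuclei per library remained, 27074 in all, and at most 0.769% of the barcodes of the smaller library were shared between any pair of libraries. Nuclei were assigned to classes from marker lists, with the clock genes kept out of the clustering, and a level is given as CPM, the UMIs of a gene for every 1000000 UMIs of that class in that library. There were 149 adipocyte nuclei in VAT replicate 2 and 2694 in VAT replicate 1, with 436 to 1850 in the SAT libraries, and the 10 adipocyte markers summed to 19937 and 20060 CPM in the 2-month libraries and 28675 to 29302 CPM in the 4 older libraries. Other classes held at least 8 of their 10 markers in every library, with exceptions in 2 classes. The SAT nuclei of the mesothelial class held 2 to 5 of 10 mesothelial markers, at 199.7 to 347 CPM against 4692 and 6076 CPM in VAT, so the label goes against the markers in SAT. Epithelial markers summed to 7144 to 8122 CPM in the SAT nuclei of the epithelial class but to 1366 CPM (8 of 10 markers) in VAT replicate 2 and 117 CPM (1 of 10) in the 14 nuclei of VAT replicate 1. The median share of mitochondrial UMIs per nucleus was 1.72% and 0.918% in SAT at 2 months, 3.49% and 2.91% in SAT at 24 months, and 0.776% and 5.07% in VAT, so in SAT it was higher at the older age, and its part in the age and library differences was not tested. In such sums, fewer nuclei that express a gene and less RNA per nucleus cannot be told apart.

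The stretches before the transcription start of *Dbp*, *Tef*, *Per2* and *Npas2* are shown because these 4 genes differed most between the adipocytes of libraries of the same age. Each is the 250 bases before the start of the main transcript, read 5′ to 3′ on the strand of the gene from the GRCm39 genome with GENCODE M39 annotation. The stretch of *Dbp* is chr7:45354262-45354511 (plus strand), that of *Tef* chr15:81695365-81695614 (plus strand), that of *Per2* chr1:91387047-91387296 (minus strand) and that of *Npas2* chr1:39232984-39233233 (plus strand). Capitals mark matches on either strand to 4 motifs of the clock, none of which overlapped another: the E-box CACGTG, the E-prime box CACGTT, the D-box TTATGTAA or TTACGTAA, and the ROR element core AGGTCA or GGGTCA.
Dbp: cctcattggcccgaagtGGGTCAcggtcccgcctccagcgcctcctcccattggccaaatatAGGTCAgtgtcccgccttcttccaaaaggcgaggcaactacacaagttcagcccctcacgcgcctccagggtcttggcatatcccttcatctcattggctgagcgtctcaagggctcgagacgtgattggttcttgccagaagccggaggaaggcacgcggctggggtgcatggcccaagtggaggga
Tef: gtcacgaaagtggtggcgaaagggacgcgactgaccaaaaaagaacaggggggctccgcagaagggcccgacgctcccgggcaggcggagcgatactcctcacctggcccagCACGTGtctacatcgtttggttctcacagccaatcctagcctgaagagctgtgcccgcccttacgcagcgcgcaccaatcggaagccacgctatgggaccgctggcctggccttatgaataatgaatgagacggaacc
Per2: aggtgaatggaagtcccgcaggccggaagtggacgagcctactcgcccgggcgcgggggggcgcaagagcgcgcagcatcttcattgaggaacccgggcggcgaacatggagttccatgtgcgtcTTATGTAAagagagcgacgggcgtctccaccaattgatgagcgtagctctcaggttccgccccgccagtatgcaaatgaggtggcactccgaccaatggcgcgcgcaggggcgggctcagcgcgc
Npas2: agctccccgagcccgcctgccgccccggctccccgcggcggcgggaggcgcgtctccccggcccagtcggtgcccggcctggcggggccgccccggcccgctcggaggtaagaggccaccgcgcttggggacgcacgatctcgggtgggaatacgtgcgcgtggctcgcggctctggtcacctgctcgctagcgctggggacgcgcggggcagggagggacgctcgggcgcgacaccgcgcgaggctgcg
The *Dbp* stretch held 2 matches to the ROR core, whose first bases lay 233 and 188 bases before the start. The *Tef* stretch held an E-box whose first base lay 138 bases before the start, and the *Per2* stretch a D-box 125 bases before it. No match to these letters was found in the *Npas2* stretch.

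Among the 10 members, 3 held an E-box in this window (*Per1*, *Cry1* and *Tef*), against 6.30% of 21618 promoters of the same length. An E-prime box was found for 3 members (*Cry1*, *Cry2* and *Nr1d1*), against 4.17% of promoters. A D-box was found for 2 members (*Per2* and *Per3*, which held 2), against 0.939%, and the ROR core for 2 (*Nr1d2* and *Dbp*), against 23.2%. These matches describe the letters of the window and were not tied to any measured difference.

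On GRCm39 the members lie on 8 chromosomes, and all are protein-coding genes. *Per1* is at chr11:68986035-69002300 and *Nr1d1* at chr11:98658752-98666188, while *Per2* (chr1:91343700-91387069) and *Npas2* (chr1:39232705-39402323) share chromosome 1. *Cry1* lies at chr10:84967560-85021252, *Cry2* at chr2:92233894-92264474, *Nr1d2* at chr14:4230545-4266624, *Dbp* at chr7:45354512-45359627, *Tef* at chr15:81686622-81711064 and *Per3* at chr4:151081373-151129140. Annotated genes overlap 6 of them on the opposite strand, among them *Thra* at *Nr1d1*, *Sphk2* at *Dbp* and *Uts2* at *Per3*. *Npas2* is also overlapped by *Gm3617* on its own strand, and counting by strand would not separate those reads. Whether the counting used strand is not given in the sources used here, so reads of these partners may not be separable.

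*Per3*, a member of the period family, was listed with 0 UMIs in all 6 libraries and all classes, also when every barcode under 15% mitochondrial UMIs was kept. For all nuclei of a library, a count of 0 allows a level of up to 0.261 to 0.570 CPM, taking 3 UMIs as the limit for counting error. Whether the annotation and counting used by the authors keep reads of *Per3* is not given in the sources used here, so this limit is on counted UMIs and not on expression. No level or difference is given for *Per3*.

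Adipocytes had the highest mean level over libraries for 5 of the 9 measured members. For *Tef*, the D-box factor, the adipocyte mean was 370 CPM (SD 276, n = 6), and the next class, the mesothelial class, had 237 CPM (SD 134, n = 6), with adipocytes above it in 5 of 6 libraries. *Cry2*, a repressor of the loop, had 127 CPM (SD 30.9, n = 6) in adipocytes and 76.4 CPM (SD 33.2) in the mesothelial class, and adipocytes were above in 6 of 6 libraries. *Nr1d2* was at 215 CPM (SD 75.4) in adipocytes and 178 CPM (SD 68.0) in the mesothelial class. Of the 6 libraries, 4 are SAT libraries, where the markers go against the name of that class. The spreads of these neighbouring classes overlapped for each of the 3 genes. *Per1* (163 CPM, SD 41.1) and *Dbp* (91.4 CPM, SD 79.6) were also highest in adipocytes, but each exceeded its next class in 4 of 6 libraries.

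The other 4 members had another class on top. *Per2* had nearly equal means in epithelial nuclei (88.9 CPM, SD 52.7, n = 5) and adipocytes (86.3 CPM, SD 36.8, n = 6), with the epithelial level above in 2 of 5 libraries. *Nr1d1* had 142 CPM (SD 70.6) in endothelial nuclei and 131 CPM (SD 33.9) in adipocytes, with the endothelial level above in 5 of 6 libraries. *Cry1*, the other cryptochrome, ran the other way from *Cry2*. It was highest in T cells at 54.6 CPM (SD 21.7, n = 5) and lowest in adipocytes at 16.3 CPM (SD 3.86, n = 6), and T cells were above adipocytes in 5 of 5 libraries. *Npas2* was highest in fibro-adipogenic progenitors (FAPs) at 76.3 CPM (SD 86.6, n = 6), a mean that 2 libraries set, and FAPs were above adipocytes in 6 of 6. The order of the 9 classes is a description and was not tested.

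**Figure D1:**
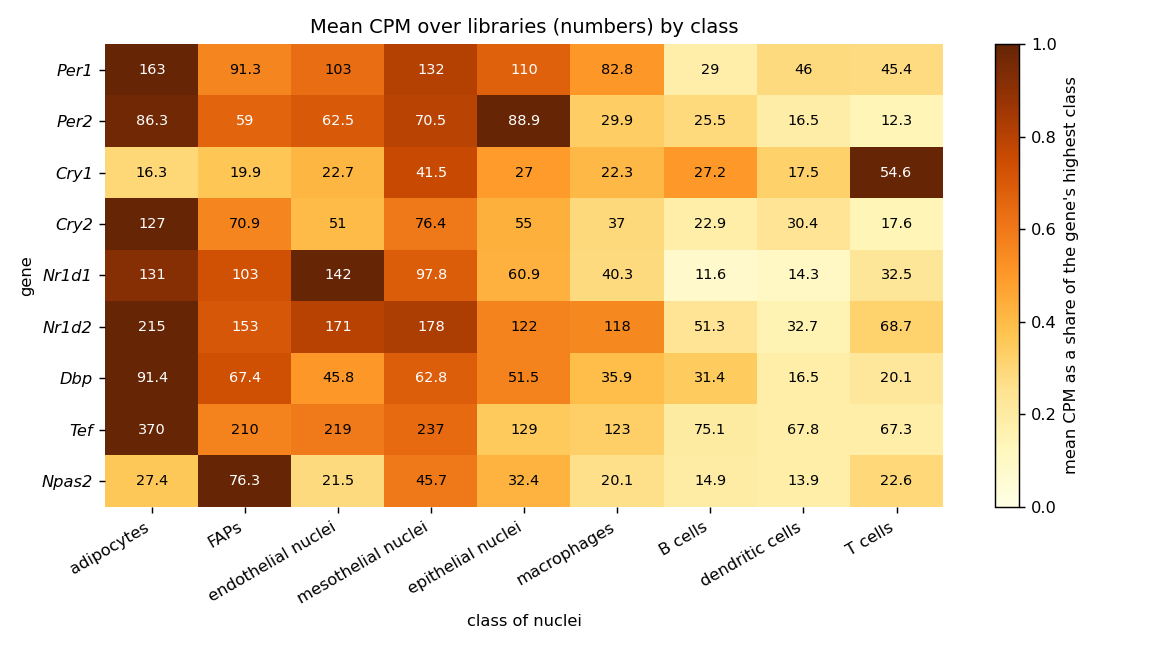
Mean CPM over libraries for 9 clock output genes (rows) in 9 classes of nuclei (columns); the numbers are means in CPM and the colour is the mean as a share of that gene's highest class. Adipocytes are darkest for *Per1*, *Cry2*, *Nr1d2*, *Dbp* and *Tef*, and T cells for *Cry1*.

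In adipocytes, the D-box factors *Dbp* and *Tef* had lower levels in the older SAT libraries than in the young ones, but the older replicates stood far apart. *Dbp* had 208 and 147 CPM in the SAT libraries at 2 months, and 93.1 and 5.36 CPM in those at 24 months. VAT at 24 months gave *Dbp* 89.4 and 4.85 CPM, the last from 2 UMIs. Thus replicate 1 of both older groups lay near 90 CPM and replicate 2 near 5 CPM, and all 4 older values were below both young ones. *Tef* had 800 and 579 CPM in SAT at 2 months, 297 and 91.2 CPM in SAT at 24 months, and 343 and 109 CPM in VAT at 24 months. As for *Dbp*, the older values were all below the young ones, and the lowest were in replicate 2 of either depot.

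*Npas2*, the partner of BMAL1 that can stand in for CLOCK, showed the opposite order. It had 6.47 and 6.57 CPM in SAT at 2 months, 1.45 and 64.8 CPM in SAT at 24 months, and 5.08 and 80.1 CPM in VAT at 24 months. Both libraries with high *Npas2* were those with low *Dbp* and *Tef*, and the other 4 libraries held between 1.45 and 6.57 CPM, from 2 to 39 UMIs each.

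The levels of *Per1* and *Per2*, early repressors of the loop, had smaller gaps between the older replicates. *Per2* had 133 and 109 CPM in SAT at 2 months, 88.7 and 41.7 CPM in SAT at 24 months, and 101 and 43.7 CPM in VAT at 24 months. *Per1* had 231 and 195 CPM in SAT at 2 months, 126 and 133 CPM in SAT at 24 months, and 146 and 148 CPM in VAT at 24 months. The *Per1* replicates lay close together in each older group, unlike those of *Per2*.

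Of the REV-ERB genes, *Nr1d2* had 327 and 277 CPM in SAT at 2 months, 201 and 130 CPM in SAT at 24 months, and 207 and 148 CPM in VAT at 24 months. *Nr1d1* had 159 and 105 CPM, 153 and 110 CPM, and 169 and 87.4 CPM in the same order of groups, with no separation of the ages. Of the cryptochromes, *Cry2* lay between 77.7 and 160 CPM in the 6 libraries and *Cry1* between 10.7 and 22.01 CPM. The SAT values of *Cry2* did not overlap between the ages, with 143 and 160 CPM at 2 months and 142 and 102 CPM at 24 months, and those of *Cry1* did.

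**Figure D2:**
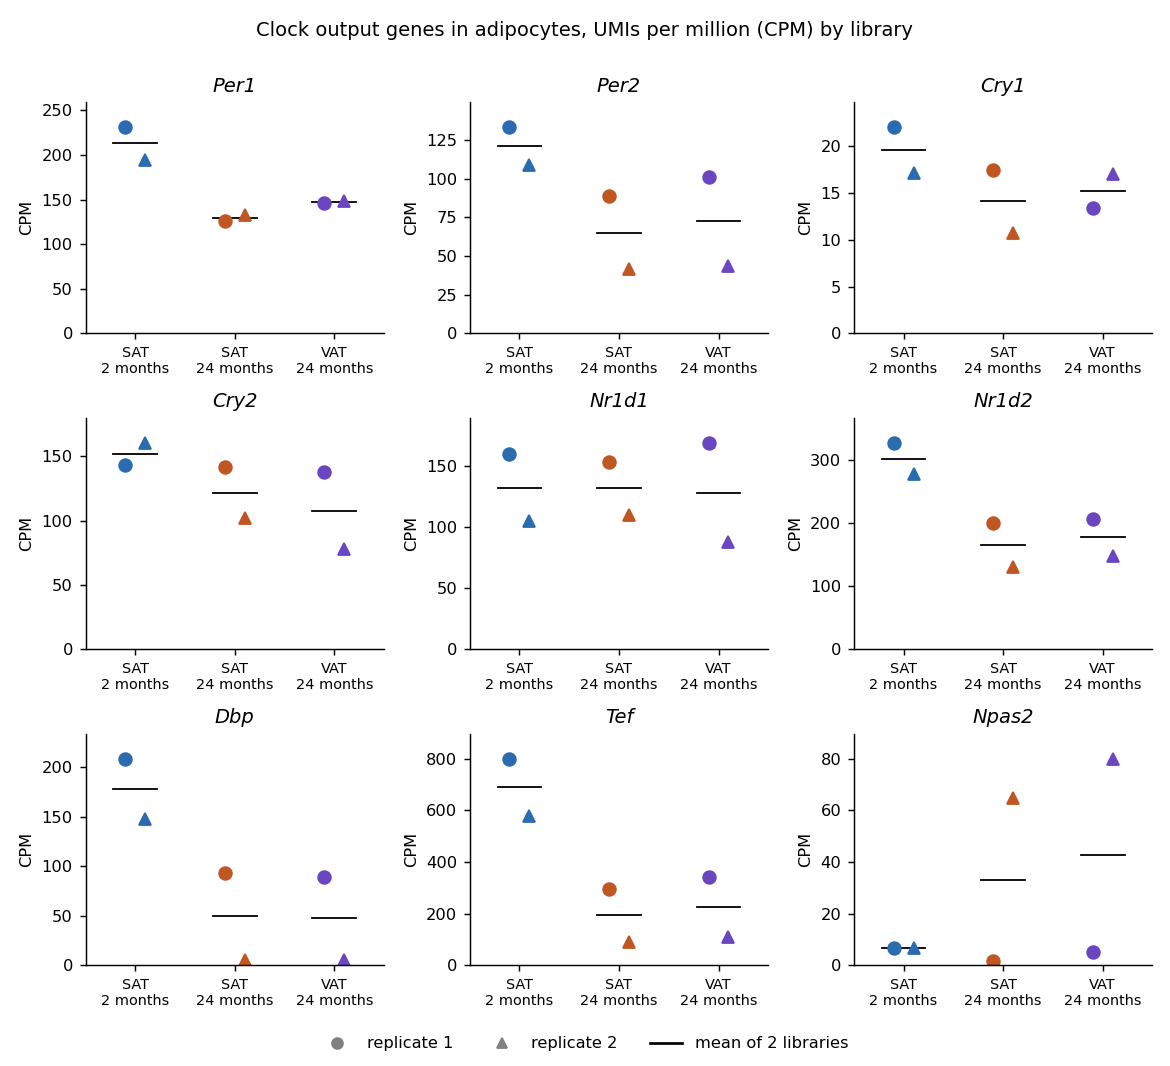
Levels of 9 clock output genes in adipocytes in CPM (vertical axes from 0), by group (horizontal axes); circles are replicate 1, triangles replicate 2, and lines the mean of 2 libraries. In *Dbp*, *Tef* and *Per2* the triangles of both older groups lie well below the circles, in *Npas2* they lie above, and in *Per1* they coincide.

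The labels do not tie a library to a mouse, so p-values measure only the spread between these libraries. The study's text gives 2 mice per age group for both depots, so older SAT and VAT libraries may share mice. The fit by group took all libraries as independent. A difference between 2 older mice could then enter the spread in both depots, and the standard errors and p-values do not allow for this. For age in SAT, 0 of the 9 members passed the test in adipocytes (edgeR quasi-likelihood test, Benjamini-Hochberg adjusted p under 0.05 over 12436 genes), where 14.1% of all genes tested were called. At an unadjusted p under 0.05 there were 2, *Nr1d2* and *Per1*, against 29.6% of all genes, and DESeq2 called 0. With the replicate number as a block 3 were called (*Per2*, *Nr1d2* and *Tef*, where 16.6% of genes were called), and with library-size scaling 2 (*Nr1d2* and *Per1*, where 15.3% were). A replicate number cannot mark a mouse shared between the ages, and the block was also fitted on the VAT libraries. The calls under the block are therefore not those of a paired test. The estimates of 7 members were below zero, and the median log2 fold change of the 9 was -0.57, against -0.01 over all genes tested. Scaling by library size alone moved the median of all genes to -0.17. In 6 members the older libraries did not overlap the young ones, all 6 with lower levels, while 38.3% of all genes were lower without overlap.

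The fold changes had wide errors where the older replicates stood apart. *Dbp* had a log2 fold change of -1.84 (SE 1.59, edgeR adjusted p = 0.527) and *Npas2* one of 2.57 (SE 2.03, adjusted p = 0.480). *Tef* had -1.67 (SE 0.71, edgeR adjusted p = 0.172). Smaller errors and smaller differences were found for *Per1* at -0.57 (SE 0.24, edgeR adjusted p = 0.128), *Nr1d2* at -0.72 (SE 0.30, adjusted p = 0.129) and *Per2* at -0.79 (SE 0.43, adjusted p = 0.2497). *Cry1* (-0.40, SE 0.45), *Cry2* (-0.17, SE 0.31) and *Nr1d1* (0.12, SE 0.34) lay nearer to zero. Leaving out 1 library gave log2 fold changes from -4.87 to -0.70 for *Dbp*, -2.74 to -0.97 for *Tef*, -1.36 to -0.21 for *Per2* and -1.04 to -0.35 for *Nr1d2*. Without SAT at 24 months replicate 1, 2 members were called, *Per2* and *Tef*, where 9.63% of genes were, and leaving out any other SAT library gave 0. Here and below, a fit without a SAT library leaves that group with 1 library, which is assumed to vary like the other groups, so a call gained or lost there can come with a like fold change. Between the ages, the summed level of 10 immune markers in adipocytes also moved, from 765 and 1410 CPM at 2 months to 246 and 191 CPM at 24 months, and its part in these values was not tested.

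The difference between the libraries of a group was then measured for each gene as the difference in log2(CPM + 10), replicate 2 minus replicate 1, among 10171 genes of at least 10 CPM in adipocytes. The numbers come from the labels, which do not say whether they mark a shared mouse. The study's text gives 2 mice per age group for both depots, without saying which libraries share a mouse. In SAT at 24 months *Dbp* differed by -2.75, a size that 0.0197% of genes reached, and in VAT at 24 months by -2.74, which 0.177% reached. *Npas2* differed by 2.71 and 2.58, *Tef* by -1.60 and -1.57, and *Per2* by -0.93 and -1.05. In SAT at 2 months these 4 genes differed by between -0.47 and 0.01.

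Differences of over 2-fold on this scale, in the same direction in both older groups, were found for 3 of 9 members in adipocytes, namely *Dbp*, *Tef* and *Npas2*, against 0.511% of all genes. *Npas2* passed the limit of 10 CPM only through the libraries where it was high. It therefore entered these counts through the gap itself. At 2 months 0 of 9 members differed over 2-fold between the libraries, where 1.87% of genes did. In SAT at 24 months 3 of 9 did (2.43% of genes), and in VAT at 24 months 4 of 9 did (5.46% of genes). *Per1* had the smallest gaps of the 9 members in both older groups, 0.07 in SAT and 0.01 in VAT. The adipocyte markers summed to 29302 and 28947 CPM in SAT and 28841 and 28675 CPM in VAT at 24 months, and the part of adipocyte content in these gaps was not tested.

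**Figure D3:**
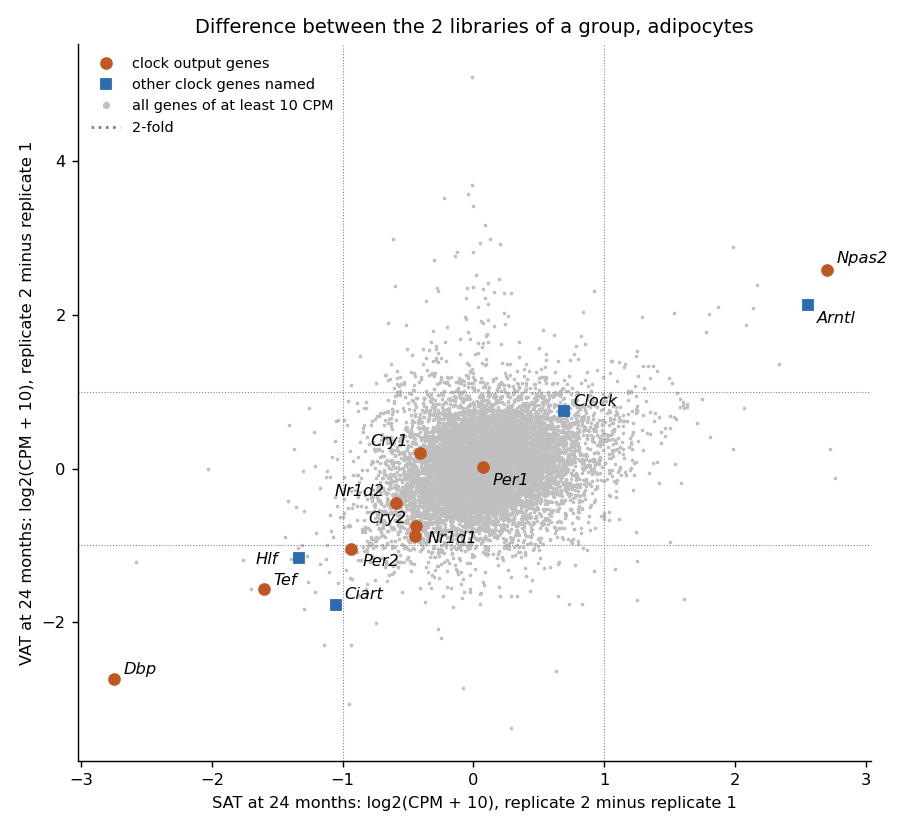
Difference between replicate 2 and replicate 1 in log2(CPM + 10) in adipocytes, for SAT at 24 months (horizontal) and VAT at 24 months (vertical); grey points are all 10171 genes, orange circles the clock output genes and blue squares other clock genes, and dotted lines mark 2-fold. *Dbp* and *Tef* lie far to the lower left and *Npas2* far to the upper right beside *Arntl*, while *Per1* lies near the centre.

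In adipocytes, 3 more genes of the loop had older replicates that stood apart. *Arntl*, which encodes BMAL1, had 16.2 and 11.8 CPM in SAT at 2 months, 10.9 and 113 CPM in SAT at 24 months, and 11.7 and 84.9 CPM in VAT at 24 months, so its high libraries were those of *Npas2*. *Ciart*, a repressor of the loop, had 31.7 and 34.2 CPM in SAT at 2 months, 11.6 and 0.413 CPM in SAT at 24 months, and 24.2 and 0 CPM in VAT at 24 months, where a count of 0 allows up to 7.28 CPM. *Hlf*, the third D-box activator, had 62.8 and 49.97 CPM, 42.2 and 10.7 CPM, and 17.96 and 2.43 CPM in the same order. *Ciart* and *Hlf* were picked after their values were seen. Of 17 loop genes of at least 10 CPM, 3 differed over 2-fold between replicates in the same direction in both older groups, against 0.511% of all genes: *Arntl*, *Hlf* and *Ciart*.

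Of 19 loop genes tested for age in adipocytes of SAT, 2 rose and 1 fell, where 6.57% of all genes rose and 7.51% fell. The median log2 fold change of the 19 was 0.0052, against -0.01 over all genes, and DESeq2 called 2. The circadian deadenylase gene *Noct* rose from 36.3 and 60.5 CPM to 61.8 and 118 CPM, a log2 fold change of 1.10 (SE 0.32, edgeR adjusted p = 0.0380). Its adjusted p with edgeR was 0.301 without SAT at 2 months replicate 1 (log2 fold change 0.79), 0.0587 without replicate 2 (1.46) and 0.347 without SAT at 24 months replicate 2 (0.65). It was 0.0771 with library-size scaling, 0.153 with the looser filter on nuclei and 0.0878 without correction by library, and 0.0767 with DESeq2, at log2 fold changes between 0.94 and 1.08. *Clock* rose from 67.3 and 60.5 CPM to 150 and 249 CPM, a log2 fold change of 1.78 (SE 0.31, edgeR adjusted p = 0.00219). *Usp2*, a ubiquitin protease under clock control, fell from 88.7 and 97.3 CPM to 13.1 and 8.46 CPM, a log2 fold change of -3.04 (SE 0.40, edgeR adjusted p = 0.000352). For *Usp2* the gap between the older replicates was small beside the age difference. *Arntl* (2.29, SE 1.44, edgeR adjusted p = 0.375) and *Nfil3*, a repressor at D-boxes (-0.69, SE 0.71, adjusted p = 0.563), did not pass.

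Genes that respond to glucocorticoids, a daily signal to peripheral clocks, and immediate early genes were counted beside these. Of 7 glucocorticoid genes tested in adipocytes 1 rose and 1 fell (median log2 fold change 0.35), against the 6.57% of all genes that rose and 7.51% that fell, with 3 at an unadjusted p under 0.05 (29.6% of all genes) and 2 called by DESeq2. *Dusp1* rose from 11.7 and 21.0 CPM to 48.7 and 122 CPM, a log2 fold change of 2.64 (SE 0.42, edgeR adjusted p = 0.00149). *Fkbp5*, which encodes a co-chaperone of the glucocorticoid receptor, fell from 395 and 531 CPM to 91.6 and 66.0 CPM, by 2.41 on the log2 scale (SE 0.29, edgeR adjusted p = 0.000193). Of 8 immediate early and heat shock genes tested, 2 rose (median 0.54, against 6.57% of all genes), with 3 at an unadjusted p under 0.05 (29.6% of all genes) and 2 called by DESeq2. *Fos* went from 1.94 and 3.94 CPM to 13.1 and 67.5 CPM, a log2 fold change of 4.10 (SE 0.89, edgeR adjusted p = 0.0154). Each of the young values of *Fos* rests on 3 UMIs. *Jun* had a log2 fold change of 1.95 (SE 0.48, edgeR adjusted p = 0.0188). *Fos* lost its call without either library of SAT at 2 months (edgeR adjusted p = 0.224 without replicate 1 and 0.182 without replicate 2), with log2 fold changes of 3.60 and 4.54 there. *Jun* lost its call without SAT at 2 months replicate 2 (log2 fold change 1.58, edgeR adjusted p = 0.137), without SAT at 24 months replicate 2 (1.13, adjusted p = 0.165) and with the looser filter on nuclei (1.65, adjusted p = 0.0609). *Fos* was higher in replicate 2 than in replicate 1 of both older groups, with 30.5 and 65.5 CPM in VAT, and the part of this signal in the clock values was not tested.

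Between the depots at 24 months, 0 of the 9 members passed in adipocytes, where 0.225% of genes were called, with 0 at an unadjusted p under 0.05 (6.52% of genes) and 0 by DESeq2. The SAT libraries at 24 months enter both this comparison and the one with age, so the values of the comparisons are not independent. The older SAT and VAT libraries may also share mice, and the fit by group did not pair them. The log2 fold changes of VAT against SAT ran from -0.34 for *Npas2* (SE 1.82) to 0.46 for *Dbp* (SE 1.59), both far smaller than their errors and with signs opposite to the order of the mean CPM. *Dbp* averaged 47.1 ± 59.8 CPM (SD, n = 2) in VAT and 49.2 ± 62.0 CPM in SAT, and *Tef* 226 ± 165 and 194 ± 145 CPM, so the spread within a depot was far larger than the gap between them. *Per1*, with the closest replicates, averaged 147 ± 1.119 CPM in VAT and 129 ± 5.00 CPM in SAT without overlap (log2 fold change 0.20, SE 0.24, edgeR adjusted p = 0.947). It was the only member without overlap, and 15.5% of all genes were higher in VAT without overlap. Lists of loop, glucocorticoid and immediate early genes likewise held 0 calls, by edgeR and by DESeq2, and 0 of their members had an unadjusted p under 0.05.

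In the stromal and epithelial classes some members also differed between the older libraries, not the same ones in every class and with lower counts behind them. In FAPs, *Dbp* had 134 and 150 CPM in SAT at 2 months, 27.2 and 12.8 CPM in SAT at 24 months, and 77.7 and 2.52 CPM in VAT at 24 months. *Npas2* in FAPs had 20.8 and 12.0 CPM, 27.2 and 236 CPM, and 47.7 and 114 CPM in the same order. The library of SAT at 24 months replicate 1 held only 50 FAP nuclei, so its 27.2 CPM rests on 2 UMIs for each gene, and the 2.52 CPM of *Dbp* in VAT replicate 2 is 1 UMI. With these counts *Npas2* in FAPs had a log2 fold change with age of 3.21 (SE 0.85, edgeR adjusted p = 0.293) and *Dbp* one of -3.09 (SE 1.18, adjusted p = 0.424). In the mesothelial class *Npas2* had 0 and 14.3 CPM, 20.6 and 104 CPM, and 33.4 and 102 CPM, again highest in replicate 2 of both older groups. In endothelial nuclei *Tef* had 366 and 270 CPM, 253 and 50.1 CPM, and 252 and 119 CPM, with the same libraries low as in adipocytes.

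Epithelial nuclei, with 256 to 473 nuclei in the SAT libraries, gave the members with more counts. *Dbp* had 66.2 and 62.7 CPM in SAT at 2 months and 75.6 and 12.1 CPM in SAT at 24 months. *Per2* had 128 and 134 CPM against 119 and 35.7 CPM, *Tef* 169 and 136 CPM against 170.02 and 46.04 CPM, and *Npas2* 11.8 and 4.82 CPM against 10.4 and 52.7 CPM. For *Dbp*, *Per2* and *Tef*, SAT at 24 months replicate 1 was close to the young libraries and replicate 2 was far below. Over 2-fold gaps between the SAT libraries at 24 months were found for 5 of 9 members in epithelial nuclei (1.76% of genes) and for 0 of 9 at 2 months (0.950% of genes). In VAT the class held 14 and 121 nuclei, and no depot comparison was made there.

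Counted per class, members over 2-fold apart in the same direction in both older groups were 3 of 9 in FAPs (*Cry1*, *Nr1d2* and *Npas2*, 2.70% of genes), 2 in endothelial nuclei (*Dbp* and *Tef*, 1.27%), 3 in the mesothelial class (*Per2*, *Dbp* and *Npas2*, 3.11%), 0 in macrophages (1.83%) and 0 in all immune nuclei (0.133%). In T cells, *Dbp* had 23.9 and 24.0 CPM in SAT at 2 months, 18.9 and 18.9 CPM in SAT at 24 months and 14.6 CPM in VAT replicate 2, the SAT values at 24 months from 12 and 4 UMIs. *Npas2* in T cells had 13.6 and 16.2 CPM, 20.5 and 28.3 CPM, and 34.5 CPM in VAT replicate 2. The T cells of the older SAT replicates thus had like levels of *Dbp*, where the adipocytes of the same libraries differed from 93.1 to 5.36 CPM.

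**Figure D4:**
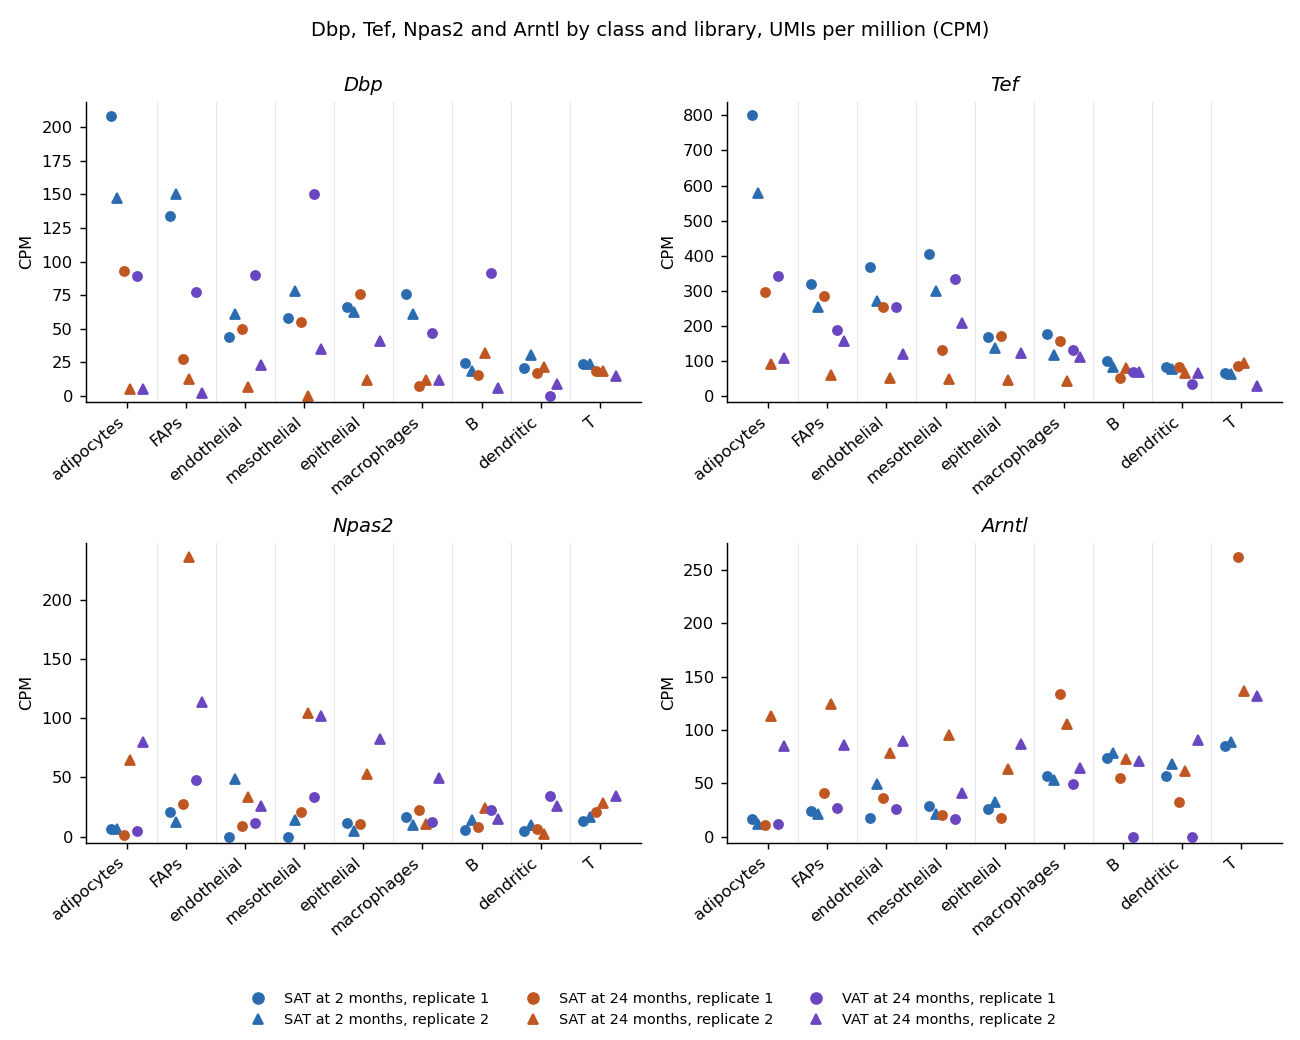
Levels in CPM of *Dbp*, *Tef*, *Npas2* and *Arntl* (panels) in 9 classes of nuclei, with a point for each library of at least 20 nuclei; colour gives the group and shape the replicate. The triangles of both older groups lie below the circles of their own group for *Dbp* and *Tef*, and above them for *Npas2*, in adipocytes and the mesothelial class, and the points of T cells lie between 14.6 and 24.0 CPM for *Dbp*. In FAPs the same order is seen for *Dbp* and *Npas2*.

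The shares of cell types within the immune class differed between libraries. Macrophages were 196 of 2727 and 276 of 4351 immune nuclei in SAT at 2 months, 77 of 1039 and 291 of 807 in SAT at 24 months, and 266 of 324 and 210 of 1218 in VAT, and T cells were 1418, 2361, 386, 146, 10 and 521 nuclei in the same order. Over libraries *Per2* averaged 29.9 CPM (SD 15.8, n = 6) in macrophages and 12.3 CPM (SD 4.16, n = 5) in T cells, and *Arntl* 77.1 CPM (SD 34.4) and 141 CPM (SD 72.1). Values of all immune nuclei therefore do not describe 1 kind of cell, and the part of this makeup in them was not tested.

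In immune nuclei as a whole, 0 of 9 members passed for age (0% of 14414 genes were called, 8.41% of them had an unadjusted p under 0.05 and 0 members did, and DESeq2 called 0 members). *Nr1d1* had the largest difference, with 11.5 and 16.5 CPM in SAT at 2 months and 39.4 and 27.9 CPM at 24 months (log2 fold change 1.39, SE 0.71, edgeR adjusted p = 0.612). Between depots 0 of 9 passed as well (0% of genes called, 1 member at an unadjusted p under 0.05 against 8.65% of genes, and 0 by DESeq2). That member was *Per2*, with 42.98 and 25.01 CPM in VAT and 11.6 and 10.4 CPM in SAT at 24 months (log2 fold change 1.55, SE 0.47, edgeR adjusted p = 0.447). Of the loop genes, *Clock* had 106 and 82.9 CPM at 2 months and 157 and 134 CPM at 24 months in immune nuclei (log2 fold change 0.75, SE 0.27, edgeR adjusted p = 0.557). *Arntl* had 79.0 and 81.3 CPM against 169 and 102 CPM (0.88, SE 0.36, adjusted p = 0.593) and *Nfil3* 5.43 and 4.72 CPM against 10.5 and 12.3 CPM (1.29, SE 0.43, adjusted p = 0.556), both by edgeR. None of the 20 loop genes passed for age (6 at an unadjusted p under 0.05 against 8.41% of all genes, 0 by DESeq2). Without VAT replicate 2, *Nr1d2* was called in the depot comparison. The adipocyte markers in immune nuclei summed to 6330 CPM in VAT replicate 1 and to between 391 and 2673 CPM in the other libraries, and their part in the VAT values was not tested.

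In the single classes beside adipocytes and all immune nuclei, 5 of 63 pairs of a member and a class passed for age, against 3.87% of all pairs of a gene and a class. At an unadjusted p under 0.05 there were 13, against 14.7% of all pairs, and DESeq2 called 1, *Nr1d1* in T cells. Between depots 0 of 45 pairs passed (3.46% of all pairs), with 6 at an unadjusted p under 0.05 (10.1% of all pairs) and 0 by DESeq2. T cells and epithelial nuclei had no depot comparison, because VAT replicate 1 held 10 and 14 of them.

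In T cells of SAT, 3 of the 9 members rose with age, where 10.8% of genes were called and 6.07% rose. *Nr1d1* had 7.43 and 17.7 CPM in SAT at 2 months and 56.6 and 56.7 CPM at 24 months, from 36 and 12 UMIs in the older libraries. The older libraries lay close together and well above the young ones (log2 fold change 2.14, SE 0.41, edgeR adjusted p = 0.000134). *Cry1* had 37.6 and 43.1 CPM at 2 months and 89.7 and 61.4 CPM at 24 months (a log2 fold change of 1.01, SE 0.29, adjusted p = 0.0159 with edgeR). *Nr1d2* had 52.0 and 57.2 CPM and 105 and 85.0 CPM (log2 fold change 0.87, SE 0.26, edgeR adjusted p = 0.0226). VAT replicate 2, from mice of the older age, held 23.9 CPM of *Nr1d1*, 41.2 of *Cry1* and 43.9 of *Nr1d2* in its T cells, close to the young SAT libraries for *Cry1* and below them for *Nr1d2*. The kinds of T cell also shifted with age in SAT. A cluster led by *Cd8a* held 31.6% and 32.9% of them at 2 months and 17.4% and 13.7% at 24 months, and a cluster led by *Lef1* and *Skap1* 29.6% and 33.8% against 15.03% and 14.4%. A cluster led by *Ctla4* and *Il2ra* held 16.1% and 15.6% against 29.5% and 26.03%, and one led by *Scart1* and *Il23r* 5.50% and 5.63% against 18.1% and 23.97%. The part of this shift in the 3 calls was not tested.

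Without SAT at 24 months replicate 1, *Nr1d1* lost its call at a like log2 fold change (2.05, edgeR adjusted p = 0.133), while those of *Cry1* (0.53, adjusted p = 0.535) and *Nr1d2* (0.57, adjusted p = 0.443) were also smaller. Without SAT at 2 months replicate 1 the calls were lost for *Cry1* (0.90, edgeR adjusted p = 0.295) and *Nr1d2* (0.79, adjusted p = 0.362), and without SAT at 2 months replicate 2 as well (1.117 and 0.951, adjusted p = 0.146 and 0.217), at log2 fold changes close to those of all libraries, and *Nr1d1* was still called. Without a filter on low counts the adjusted p was 0.0880 for *Cry1* and 0.148 for *Nr1d2*, and with the looser filter on nuclei 0.0575 for *Nr1d2*, at log2 fold changes of 0.89, 0.75 and 0.82, and DESeq2 called neither. Adipocyte markers in T cells summed to 533 and 429 CPM at 2 months and to 398 and 1218 CPM at 24 months, and their part in these values was not tested.

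*Per1* fell with age in 2 classes. In epithelial nuclei it had 139 and 177 CPM at 2 months and 102 and 90.9 CPM at 24 months (log2 fold change -0.72, SE 0.21, edgeR adjusted p = 0.0353, where 8.44% of genes were called and 4.23% fell). In dendritic cells *Per1* had 45.6 and 81.3 CPM at 2 months and 15.4 and 25.7 CPM at 24 months, from 9 and 13 UMIs (log2 fold change -1.47, SE 0.45, edgeR adjusted p = 0.0475, where 2.28% of genes were called and 1.49% fell). The dendritic call was lost without any single SAT library, with edgeR adjusted p from 0.165 without SAT at 24 months replicate 2 to 1.00 without SAT at 2 months replicate 2 and log2 fold changes between -1.82 and -0.95. It was also lost under the replicate block (0.211), without a filter on low counts (0.0809), with the looser filter on nuclei (0.283) and without correction by library (0.101), at log2 fold changes between -1.55 and -1.24. The epithelial call was lost without SAT at 2 months replicate 1 (0.0609), SAT at 2 months replicate 2 (0.393) and SAT at 24 months replicate 2 (0.110), at log2 fold changes between -0.87 and -0.54, and with the looser filter on nuclei (0.172). DESeq2 called neither. In macrophages, *Dbp* had 75.9 and 61.0 CPM at 2 months and 7.41 and 12.1 CPM at 24 months, from 1 and 7 UMIs, and did not pass (log2 fold change -2.51, SE 0.74, edgeR adjusted p = 0.293).

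**Figure D5:**
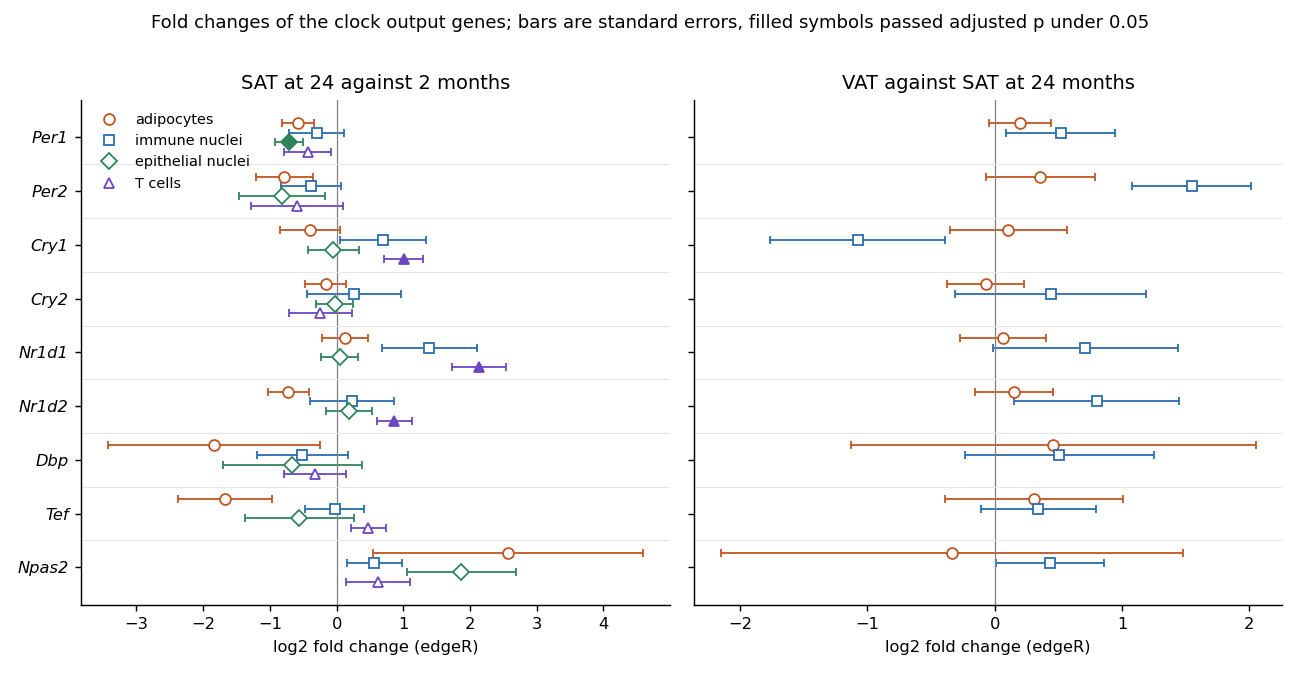
Log2 fold changes from edgeR (horizontal axes) of 9 clock output genes in adipocytes, immune nuclei, epithelial nuclei and T cells, for SAT at 24 against 2 months (left) and VAT against SAT at 24 months (right); bars are standard errors and filled symbols passed at an adjusted p under 0.05. The filled symbols are *Per1* in epithelial nuclei, and *Cry1*, *Nr1d1* and *Nr1d2* in T cells, and the widest bars are those of *Dbp* and *Npas2* in adipocytes.

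Whether the age difference in SAT differed between adipocytes and immune nuclei was tested as an interaction over 14539 genes, with the library as a term. Of the 9 members, 0 passed (3.45% of genes did), 3 had an unadjusted p under 0.05 (20.4% of genes), and DESeq2 called 1, *Tef*. The difference of the log2 fold changes was -1.77 for *Tef* (SE 0.45, edgeR adjusted p = 0.0686), -1.17 for *Nr1d1* (SE 0.41, adjusted p = 0.151) and -0.91 for *Nr1d2* (SE 0.31, adjusted p = 0.147), each with a lower value in adipocytes. Leaving out 1 library gave -2.40 to -1.06 for *Tef*, -1.75 to -0.54 for *Nr1d1* and -1.12 to -0.62 for *Nr1d2*. The adipocyte markers in the immune nuclei of SAT summed to 624 and 487 CPM at 2 months and to 571 and 2673 CPM at 24 months. The makeup of the immune class also changed with age, as given above, so these values are not changes within 1 kind of cell, and the part of that makeup was not tested. Without SAT at 24 months replicate 1 the difference was 3.06 for *Npas2*, -4.24 for *Dbp* and -2.40 for *Tef*. For *Nr1d2* and *Nr1d1* it was -1.09 and -1.16 there. Without SAT at 24 months replicate 2 it was -1.06 for *Tef*. Each of these fits had a single older SAT library left, so the spread between libraries came from the young SAT libraries alone.

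In the sum of all nuclei of a library, 0 of 9 members passed for age (0% of 21729 genes were called, 8.05% had an unadjusted p under 0.05 and 0 members did, and DESeq2 called 0 members) or between depots (0.0138% of genes called and 7.51% at an unadjusted p under 0.05, with 0 members at either and 0 by DESeq2). Adipocytes were 149 of 5070 nuclei in VAT replicate 2 and 2694 of 4434 in VAT replicate 1. *Npas2* had 10.8 and 12.6 CPM in SAT at 2 months, 13.7 and 55.0 CPM in SAT at 24 months, and 10.6 and 86.3 CPM in VAT at 24 months in this sum, so the older replicates differed there too. Nuclei of the mesothelial class numbered 75 in VAT replicate 1 and 1669 in VAT replicate 2. The part of this makeup in the sums was not tested.

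For the 4 members called in any class, the genes of most similar level were sought over 52 sums of a class in a library, among 12058 genes, by Pearson's r of log2(CPM + 10). The sums share libraries, depth and classes, so these values describe and do not test. *Nr1d2* was most like *Tef* (r = 0.806), another member, followed by *Tmbim1* (0.784) and *Slc25a42* (0.751). *Nr1d1* was most like *Fermt2* (r = 0.852), *Nfia* (0.832) and *Tns2* (0.828). For *Per1* they were *L3hypdh* (0.743), *Dnajb4* (0.738) and *Flot1* (0.738), and for *Cry1*, with the weakest likeness, *Cep68* (0.641), *Taf3* (0.640) and *Ebna1bp2* (0.633).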

How the data were processed

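The authors captured nuclei on a microfluidic chip (GEXSCOPE kit) and counted reads with Celescope against GRCm39 (version and annotation release not given in the sources used here), and deposited a matrix of UMI counts for each library, with no normalization. The visceral depot of young mice is not analysed here. The study tested single nuclei, whereas here the deposited counts were summed per library and class. The members, gene lists and marker lists were chosen with earlier results of these data known.

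Nuclei with at least 500 genes and 1000 UMIs and under 15% mitochondrial UMIs were kept, clustered with leidenalg 0.10.2 (1000 variable genes, 30 components, Leiden resolution 2, correction by library) without clock and mitochondrial genes, and named from marker lists into 43 clusters and 22 immune subclusters. The naming rule was revised after the clusters were seen: immune subtype lists could name a cluster immune, and clusters whose leading genes went against a name stayed unnamed. Scrublet, run in scanpy 1.11.5, marked 0.0519% to 0.562% of nuclei as doublets and so did not work, and removing the 6% of highest score was added after the data were seen. A class with under 20 nuclei in a library was left out there.

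Sums were tested by edgeR 4.0.16 (TMM, quasi-likelihood, two-sided, all 6 libraries in one fit, group only), with Benjamini-Hochberg adjustment over all genes of a class. DESeq2 1.42.0, other scalings and filters, replicate blocks and leaving out libraries were alternatives. The interaction had the library as a term. The floor of 3 UMIs covers counting error only. All members are named, with loop genes called in adipocytes or immune nuclei, *Arntl*, *Clock* and *Nfil3*, and up to 3 called genes of the glucocorticoid and of the immediate early list. A gene of the loop list is not reported here and is in none of its counts. Tested on counts simulated for the age comparison in adipocytes (11468 genes), edgeR called 93.9% of genes raised 4-fold, 85.1% lowered to 0.25, 21.7% raised 2-fold, 22.7% lowered to 0.5, and 0.0355% of unchanged genes. The simulated counts had the same dispersion for every gene and no gap between replicates. These shares therefore do not apply to genes whose older replicates stood apart, such as *Dbp*, *Tef* and *Npas2*. Positions and promoters are from GRCm39 with GENCODE M39, which held 98.7% of the listed gene identifiers.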

Additional observations from a re-analysis of the deposited data

Results flagged for a closer look

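The age difference in SAT differed between adipocytes and immune nuclei for 1 of 20 genes of the clock loop and 1 of 8 of the glucocorticoid list, by edgeR's interaction test, which called 3.45% of all genes. The makeup of the immune class changed with age as well, and its part in these values was not tested. *Hlf*, a D-box activator, had a value of -3.03 (SE 0.45, edgeR adjusted p = 0.0170), and its adjusted p was 0.137 without the library term (a value of -3.01) and 0.0752 without SAT at 2 months replicate 2 (a value of -2.74). *Fkbp5*, a glucocorticoid target, had -2.33 (SE 0.29, edgeR adjusted p = 0.0100), and 0.0571 without SAT at 2 months replicate 2 (-2.21). No clock output gene was called by edgeR in this test, and DESeq2 called *Tef*.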

How the results depend on the processing

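In adipocytes, the count of 0 members called for age became 2 with library-size scaling (*Nr1d2* and *Per1*), 1 without a filter on low counts and 1 with only the 4 SAT libraries (*Tef* in both), and 0 to 2 leaving out a library. Over the other classes the 5 pairs called for age became 1 with DESeq2 (1.58% of all pairs called) and 3 with the looser filter on nuclei (1.53%). They became 7 without a filter on low counts (1.55%). Of those 5, only *Per1* in epithelial nuclei and *Nr1d1* in T cells stayed among the 7, and the rest of the 7 were new. Leaving out a library also lost calls, as given above. The 0 pairs between depots became 1 without a filter on low counts (*Tef*, mesothelial class), 1 with the looser filter (*Cry1*, T cells) and 0 to 4 leaving out a library, with 4 without VAT replicate 1 (7.60% of all pairs called) and 4 without VAT replicate 2 (2.83%). In all nuclei, 1 member (*Npas2*) was called for age without a filter on low counts. The interaction had 1 member (*Tef*) with library-size scaling, DESeq2 or no filter, and 0 to 5 leaving out a library. Immune nuclei had 0 to 1 between depots. In each case the cause was not tested.

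With the replicate block, 3 members (*Per2*, *Nr1d2* and *Tef*) were called for age in adipocytes, with 2064 genes in all against 1751. Deviations of same-numbered libraries correlated at -0.0936 (age) and 0.0794 (depot) in adipocytes and at -0.0718 and -0.495 in immune nuclei, so the numbers were not taken to pair the libraries. With the crossed block, added after the data were seen, 0 members and 1 gene passed between depots in immune nuclei.

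Signs turned in adipocytes for age for *Nr1d1* with library-size scaling (-0.053) and *Cry2* without a filter (0.069). Between depots in adipocytes they turned for *Npas2* with DESeq2 (0.37), the replicate block (0.31) and the looser filter (0.074), *Dbp* with DESeq2 (-0.047) and *Nr1d1* with the replicate block (-0.049). The looser filter turned *Per2* in immune nuclei for age (0.057), and no filter turned the interaction of *Per1* (0.033). The looser filter moved the mean level of *Per1* in VAT adipocytes to 132 CPM and of *Npas2* in young adipocytes to 7.28 CPM, and in immune nuclei that of *Per2* (16.0 CPM), *Dbp* (16.3 CPM) and *Npas2* (23.7 CPM) in SAT at 24 months and of *Cry2* (25.2 CPM) at 2 months. The 54 other means did not move by 1 SD or more, but they include those of *Per3*, which were 0 and could not move.

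Leaving out a library turned these log2 values. For age in adipocytes they ran from -0.70 to 0.057 for *Cry1*, -0.38 to 0.15 for *Cry2*, -1.88 to 3.49 for *Npas2*, -0.12 to 0.53 for *Nr1d1*, -0.16 to 3.14 for *Arntl* and -2.63 to 0.16 for *Nfil3*. Between depots in adipocytes they ran from -0.33 to 0.48 for *Cry1*, -0.70 to 0.25 for *Cry2*, -3.22 to 3.56 for *Dbp*, -2.74 to 4.38 for *Npas2*, -0.65 to 0.43 for *Nr1d1*, -0.22 to 0.53 for *Nr1d2*, -0.59 to 1.00 for *Per2* and -0.88 to 1.44 for *Tef*. In immune nuclei for age, *Cry2* ran from -0.0086 to 0.52 and *Tef* from -0.26 to 0.18. Between depots there, *Cry2* ran from -1.20 to 1.32, *Dbp* from -1.04 to 1.42, *Npas2* from -0.037 to 0.64, *Nr1d1* from -0.83 to 1.53, *Nr1d2* from -0.67 to 1.55, *Per1* from -0.096 to 0.98 and *Tef* from -0.47 to 0.88. The interaction ran from -0.85 to 0.24 for *Cry2*, -2.60 to 3.06 for *Npas2*, -0.51 to 0.17 for *Per1* and -0.84 to 0.18 for *Per2*.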
